A study of Mus musculus with 2 samples.

Results

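*Serpine3* and 9 genes that accompany it in retinal pigment epithelium (RPE) were followed through single cells of the mouse eye cup: *Fgfbp3*, *Padi2*, *Htr3a*, *Wfikkn2*, *Efna2*, *Itga3*, *Nog*, *Upk3b* and *Upk1b*. They are 10 of the 32285 genes in the count tables, each found once by its symbol. The 10 genes were chosen by their values in these same libraries, namely a lower level in RPE of the variant genotype and detection in the cells that hold *Serpine3*. Their levels in RPE, the ratio between genotypes and their joint detection are therefore descriptions, and no test is made of them. The libraries come from pooled embryonic eye cups (E17.5), 3 per genotype by the labels, while the study's methods give both eyes of 3 mice. In the control, *Myrf* humWT/humWT, both alleles carry a humanized wild-type last exon of *Myrf*. In the variant, *Myrf* humdG/humdG, both alleles carry the humanized exon in a form that shifts the frame at the C-terminus. It was made to model a splice variant of patients. The alleles were made by CRISPR/Cas9 on C57BL/6J, so the controls are humanized too, and no unmodified mouse was among these samples. The labels say that cornea, lens and optic nerve were removed, while the study's methods keep the cornea, and the protocol text of the labels also speaks of Myrf fl/fl and Rx>cre animals, which these genotypes are not. With 1 library per genotype, here called humWT and humdG, there is no replicate, and no difference between the genotypes was tested. Every interval below covers counting error only, apart from an interval over genes where it is named.

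MYRF is a membrane-bound transcription factor that cuts itself, after which the freed part enters the nucleus. It is best known as a driver of myelin genes in oligodendrocytes, and in the eye it acts in the RPE, the pigmented layer behind the retina that nourishes photoreceptors. *Serpine3* encodes a member of the SERPINE clade of serine protease inhibitors, proteins that trap the protease they inhibit. Several of the accompanying genes encode secreted or surface proteins: *Nog* and *Wfikkn2* hold back BMP and GDF ligands, *Fgfbp3* carries fibroblast growth factors, *Efna2* is a ligand of EphA receptors, *Itga3* is a laminin receptor subunit, *Htr3a* is a subunit of the serotonin-gated channel, and *Upk3b* and *Upk1b* are uroplakins of covering epithelia. *Padi2* encodes an enzyme that turns arginine into citrulline.

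The humWT library held 17421 barcodes and 129135207 unique molecular identifiers (UMIs, each standing for 1 captured transcript), and the humdG library 19565 barcodes and 114319529 UMIs. After filters, 16166 and 18173 cells remained, with medians of 3785 and 2625 UMIs per cell, and 86 of their barcodes occurred in both libraries. RPE-like cells, named from pigment and visual cycle markers, numbered 560 in humWT and 401 in humdG, with medians of 3865.5 and 2585 UMIs per cell. Of the 12 RPE markers, *Rpe65*, *Lrat* and *Best1* had 1 to 4 UMIs in each library, and the other 9 had a median log2 ratio of humdG to humWT of -0.12, from -0.45 to 0.38. *Myrf* itself stood at 282 CPM (UMIs of the gene per 1000000 UMIs) in humWT RPE-like cells and 198 in humdG, but the exon that differs is human in both libraries, so its count does not check the genotype labels. Red blood cell-like cells would not be thought to make these transcripts. There the 10 genes lay between 1.79 and 11.6 CPM in humWT (4 to 26 UMIs). In humdG they lay between 0.00 and 8.04 CPM (0 to 9 UMIs). Such UMIs can come from free RNA, but their source was not tested.

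*Serpine3* (ENSMUSG00000091155) lies on chromosome 14 from 62663667 to 62692243 on the plus strand (GRCm38, the mm10 build of the files), with 9 exons. Its last exon spans 62692067 to 62692243, and its final 15914 bases overlap *Ints6*, a gene on the minus strand. Reads of the partners are told apart only by strand, and how strand was handled in the counting is not given in the sources used here. The window from 250 bases before to 50 after the gene start was found in RefSeq tables (GRCm38.p6) for 7 of the 10 genes, in 8 windows because *Itga3* has a pair of starts. No window was listed for *Htr3a*, *Nog* or *Upk1b*. The windows were searched on both strands for CTGGCAC and CTGGTAC, forms of the sequence that MYRF binds, whose matches can overlap on opposite strands. Only that of *Upk3b* held one, 77 bases before the start, against 2331 of 32851 windows of this length (7.096%). The windows of *Serpine3*, the gene with the largest difference here, and of *Upk3b*, the only one with a match, are shown 5′ to 3′ on the plus strand, at chr14:62663417-62663716 and chr5:136038246-136038545, with the match in capitals.
Serpine3: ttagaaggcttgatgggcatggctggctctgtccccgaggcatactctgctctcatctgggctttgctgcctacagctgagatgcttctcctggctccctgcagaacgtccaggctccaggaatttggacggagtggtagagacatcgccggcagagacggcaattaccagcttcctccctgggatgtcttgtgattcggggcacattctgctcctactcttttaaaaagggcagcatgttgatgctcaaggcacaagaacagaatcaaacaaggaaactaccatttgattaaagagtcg
Upk3b: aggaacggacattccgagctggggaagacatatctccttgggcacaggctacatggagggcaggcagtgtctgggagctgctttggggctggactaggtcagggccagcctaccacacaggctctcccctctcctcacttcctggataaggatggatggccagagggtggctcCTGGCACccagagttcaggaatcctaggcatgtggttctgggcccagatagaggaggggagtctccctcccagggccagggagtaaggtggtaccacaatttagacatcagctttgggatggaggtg

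In humWT RPE-like cells *Serpine3* had 1196 UMIs, 275 CPM (260 to 291, exact Poisson interval, as for every CPM below). In humdG RPE-like cells it had 1 UMI, 0.41 CPM (0.01 to 2.26). The log2 ratio of humdG to humWT was -9.41 (-14.71 to -6.93, exact conditional binomial interval, as for every ratio below). With 0.5 counts added, *Serpine3* ranked lowest of the 12635 genes with at least 20 UMIs in these cells of both libraries together. Without added counts, a gene with no humdG UMI, such as *Gm12381* with 20 UMIs in humWT and 0 in humdG, has a lower ratio. *Serpine3* was chosen for this contrast, so its rank is a description. The *Serpine3* UMIs sat in few cells. A *Serpine3* UMI was found in 87 of 560 humWT cells (15.5%, with a Clopper-Pearson interval of 12.6 to 18.8) and in 1 of 401 humdG cells (0.25%, 0.01 to 1.38). After each cell was thinned to 1000 UMIs, 39 of 560 humWT cells (6.96%, 5.00 to 9.40) and 0 of 399 humdG cells, which allows up to 0.752% (3 counts), still had one. Among red blood cell-like cells, whose median depths were 4016.5 and 4164.5 UMIs, 15 of 500 humWT cells (3.00%) and 0 of 250 humdG cells had one, the latter allowing up to 1.2% by the same limit.

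Of the 87 humWT cells, 35 had a single *Serpine3* UMI, 38 had at least 3 and 17 had at least 10. The fullest cell held 170 *Serpine3* UMIs among 17977 UMIs in all. The next ones held 156, 130, 113, 109, 67, 59, 50, 43 and 37. These 10 cells together held 78.1% of the *Serpine3* UMIs of the class but 7.68% of all its UMIs. No accompanying gene was as concentrated, since the 10 cells with most of each gene's own UMIs held 53.4% for *Fgfbp3* and between 26.7 and 39.9% for the other 8. In humdG no cell held more than 1 *Serpine3* UMI. Leaving out the 10 fullest cells left 262 humWT UMIs against the same 1 in humdG, a log2 ratio of -7.33.

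**Figure D1:**
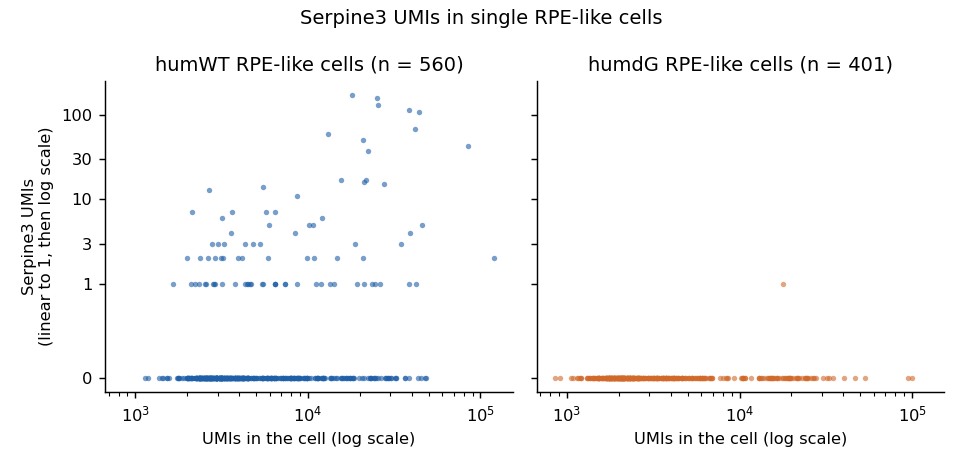
Serpine3 UMIs of each RPE-like cell (y axis, linear up to 1 and logarithmic above) against all UMIs of that cell (x axis, log scale), for 560 humWT cells (left) and 401 humdG cells (right). Counts of up to 170 appear in a few deep humWT cells, most cells of both libraries lie at 0, and 1 humdG cell lies at 1.

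The share of humWT cells with *Serpine3* was larger in deeper cells. It was 33 of 329 cells with 2000 to 5000 UMIs (10.0%, 7.01 to 13.8), 17 of 103 with 5000 to 10000 (16.5%, 9.92 to 25.1), 14 of 56 with 10000 to 20000 (25%, 14.4 to 38.4) and 22 of 53 with 20000 or more (41.5%, 28.1 to 55.9). The level was larger too, from 79.6 CPM in the first of these depth classes to 445 CPM in the last. In humdG the only UMI was in 1 of 42 cells with 10000 to 20000 UMIs (2.38%, 0.06 to 12.6), and none was found in 26 cells with 20000 or more, a count that allows 11.5%. The median depths in this deepest class were 28370 and 25478.5 UMIs per cell. The intervals count cells of 1 library per genotype, and the difference in shares was not tested.

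By the study's methods each library pools embryos, so the cells with *Serpine3* were set against the embryos' sex genes. Among humWT RPE-like cells with at least 5000 UMIs, *Serpine3* was found in 10 of 43 cells with *Xist* UMIs and no Y-linked UMI (23.3%, 11.8 to 38.6). It was found in 23 of 77 cells with Y-linked UMIs and no *Xist* UMI (29.9%, 19.97 to 41.4). Cells with at least 10 *Serpine3* UMIs numbered 5 and 7 in these sets. A further 37 cells held both kinds of UMI and 55 neither. These sets rest on single UMIs, which free RNA can supply, so how many embryos or eye cups gave the cells with *Serpine3* is not known. The RPE-like class consists of a larger cluster (487 and 386 cells) and a smaller one (73 and 15 cells) led by *Ankfn1*, *Otx2os1* and *Pde1c*. In humWT, *Serpine3* was at 300.3 CPM in the larger cluster and 80.6 CPM (57.6 to 109.8) in the smaller, found in 15.6% and 15.1% of their cells. *Wfikkn2* (403 and 50.4 CPM), *Fgfbp3* (90.1 and 10.1 CPM) and *Nog* (151 and 20.2 CPM) were also lower in the smaller cluster, while *Itga3* was level (72.5 and 70.5 CPM).

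Outside the RPE-like class the picture was different. In humWT, 15606 other cells held 722 *Serpine3* UMIs (6.25 CPM, 5.80 to 6.72), 600 of the 646 cells with any holding just 1. In humdG, 17772 other cells held 325 UMIs (3.09 CPM, 2.76 to 3.44), with a highest count of 3 in a cell. RPE-like cells held 62.4% of the *Serpine3* UMIs of all kept humWT cells and 0.31% of those of humdG. In humdG the RPE-like level, with its upper bound of 2.26 CPM, was below that of all other cells together. The classes ran in humdG from 7.72 CPM (5.61 to 10.4) in photoreceptor precursor-like cells, through 4.78 in amacrine and horizontal-like and 4.31 in neurogenic-like cells, to 0 of 250 cells in the red blood-like class. Photoreceptor precursor-like cells had 7.70 CPM (5.50 to 10.5) in humWT, nearly the same value. In the humWT muscle-like class, second to RPE-like cells at 9.31 CPM, a single cell held 15 of the 90 UMIs and carried UMIs of 5 of 7 RPE markers. Neighbouring classes in either order had overlapping intervals, apart from the RPE-like class of humWT.

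The neighbours of *Serpine3* with enough UMIs differed far less between the libraries. *Ints6*, which overlaps it on the other strand, had 45.3 CPM in humWT RPE-like cells and 27.5 in humdG, a ratio of 0.61 (0.45 to 0.80). *Wdfy2*, downstream, had 28.5 and 21.5 CPM, a ratio of 0.75 (0.54 to 1.05). *Fam124a*, upstream, had 12 and 2 UMIs, too few to place its ratio (0.03 to 1.32). For each 100 *Ints6* UMIs there were 607 *Serpine3* UMIs in humWT RPE-like cells, 1.47 in humdG RPE-like cells, 12.4 in the other humWT cells and 6.35 in the other humdG cells.

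All 9 accompanying genes were lower in humdG RPE-like cells, where 55.4% of all genes were lower. The intervals of the 9 leave out equality, and the share of all genes with such an interval was not counted. In all 10 genes the median log2 ratio was -1.10, against -0.06 over all 12635 genes measured. With *Serpine3*, 6 of the 10 had a log2 ratio of -1 or less, where 5.52% of all genes did. The genes were picked for this contrast, so these counts are not evidence about them.

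Of the inhibitors of BMP and GDF signals, *Wfikkn2* had 1577 UMIs in humWT and 347 in humdG, 363 and 141 CPM, a ratio of 0.39 (0.34 to 0.44). *Nog* had 592 and 188 UMIs, 136 and 76.2 CPM, a ratio of 0.56 (0.47 to 0.66). The difference was larger for *Wfikkn2* than for *Nog*. Their intervals did not overlap but cover counting error only, and the genes were not tested against each other. *Fgfbp3*, the carrier of fibroblast growth factors, had 352 and 53 UMIs, 81.0 and 21.5 CPM, a ratio of 0.27 (0.19 to 0.35). A single humWT cell held 73 of its UMIs (20.7%). Without the fullest cell of each library its log2 ratio was -1.74, against -1.92 with all cells.

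Among surface proteins, the uroplakin *Upk3b* had 1540 and 406 UMIs, 354 and 164 CPM, a ratio of 0.46 (0.42 to 0.52). Its relative *Upk1b*, a tetraspanin, had 626 and 167 UMIs, 144 and 67.7 CPM, a ratio of 0.47 (0.39 to 0.56). The uroplakins therefore differed between genotypes by the same factor within counting error. The channel subunit *Htr3a* had 508 and 154 UMIs, 117 and 62.4 CPM, a ratio of 0.53 (0.44 to 0.64). *Efna2* (307 and 93 UMIs, 70.7 and 37.7 CPM) and *Itga3* (314 and 97 UMIs, 72.3 and 39.3 CPM) had ratios of 0.53 (0.42 to 0.67) and 0.54 (0.43 to 0.68). The enzyme gene *Padi2* was the least abundant, with 163 and 27 UMIs, 37.5 and 10.9 CPM, and a ratio of 0.29 (0.19 to 0.44). *Padi2* overlaps *Gm13031* and *Htr3a* overlaps *Gm32335*, each on the other strand.

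**Figure D2:**
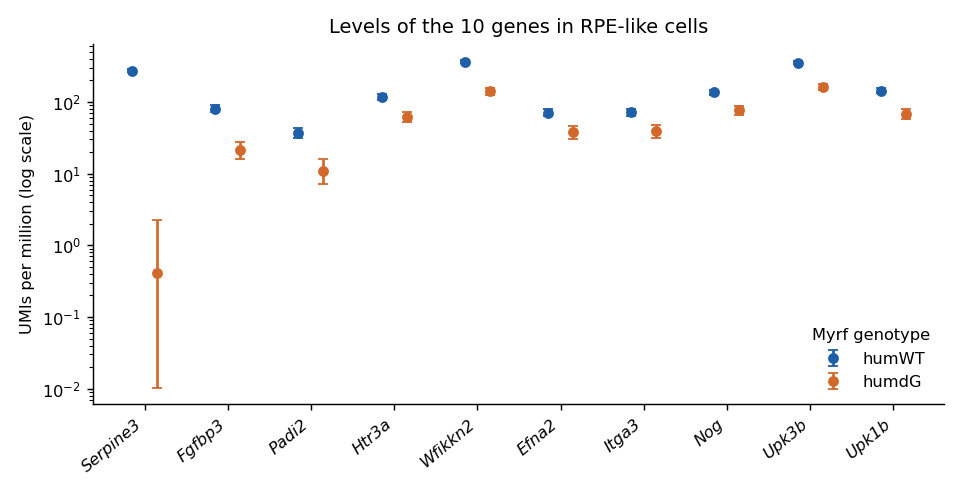
Level of each gene in RPE-like cells in CPM (y axis, log scale) for the humWT (blue) and humdG (orange) library, with exact Poisson intervals. Every orange point lies below its blue partner, and that of Serpine3 lies at 0.41 against 275.

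In cells of at least 10000 UMIs, 109 in humWT and 68 in humdG with medians of 19310.0 and 18601 UMIs, the log2 ratio was further below 0 for 8 of the 9 accompanying genes than over all RPE-like cells, *Padi2* being the other. *Wfikkn2* and *Upk3b* were each found in 99 of 109 humWT cells (90.8%), and in 49 and 51 of 68 humdG cells. *Fgfbp3* was found in 63 humWT cells (57.8%, 48.0 to 67.2) and 16 humdG cells (23.5%, 14.1 to 35.4), at 120.4 and 20.5 CPM. *Serpine3* was found in 36 and 1. All 10 log2 ratios in these cells were negative, from -9.29 for *Serpine3* and -2.55 for *Fgfbp3* to -0.92 for *Nog*. These genes were chosen for a lower level in humdG, and the share of all genes was not counted in these deeper cells.

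Across the 13 named cell classes, 9 of the 10 genes were highest in RPE-like cells in humWT and 5 in humdG. Unnamed cells, 7647 in humWT and 12026 in humdG, were not ranked. With finer clustering (resolution 1.0), 4 rather than 5 were highest there in both libraries. The genes were chosen by their values in RPE, so these counts are a description. The same count was not made for all genes. *Htr3a* was the most restricted of the accompanying genes, at 34.2 times the next class in humWT (cartilage-like, 3.42 CPM) and 27.7 times in humdG. These cartilage-like levels rested on 15 and 4 UMIs, and red blood cell-like cells of humWT had 2.23 CPM, so the factors are rough. *Upk3b* followed in humWT at 14.1 times the surface epithelium-like level (5.04 times in humdG), and *Wfikkn2* at 12.3 times the mesenchyme-like level (5.85 times in humdG). *Nog*, at 5.39 and 3.38 times, came second in cartilage-like cells, with 25.3 and 22.5 CPM. *Upk1b* was highest in surface epithelium-like cells in both libraries, at 262 and 202 CPM, where *Upk3b* had 25.2 and 32.6 CPM and *Itga3* 44.1 and 40.5 CPM. *Efna2* was broad: its RPE-like level was 2.34 times that of retinal progenitor-like cells in humWT, but 37.7 against 35.1 CPM in amacrine and horizontal-like cells in humdG, with overlapping intervals.

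For *Fgfbp3*, *Padi2* and *Itga3* the class order differed between the libraries. *Fgfbp3* was highest in RPE-like cells in humWT (81.0 against 27.9 CPM in retinal progenitor-like cells) but in humdG came after retinal progenitor-like (37.1 CPM) and neural crest and glia-like cells (35.8 CPM). The unranked unnamed cells held *Fgfbp3* at 15.4 CPM in humWT and 27.1 CPM in humdG. *Padi2* led in RPE-like cells in humWT and was second to neural crest and glia-like cells in humdG, at 10.9 and 12.5 CPM, which overlap. *Itga3* was level with surface epithelium-like cells in humdG, at 39.3 and 40.5 CPM. A pigmented cluster that carried melanocyte markers was left unnamed because RPE pigment genes led it. In its 102 humWT cells *Serpine3* had 1 UMI, *Upk3b* 3, *Nog* 3, *Htr3a* 2 and *Myrf* 3. The highest of the 10 genes there was *Fgfbp3*, at 12.5 CPM.

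**Figure D3:**
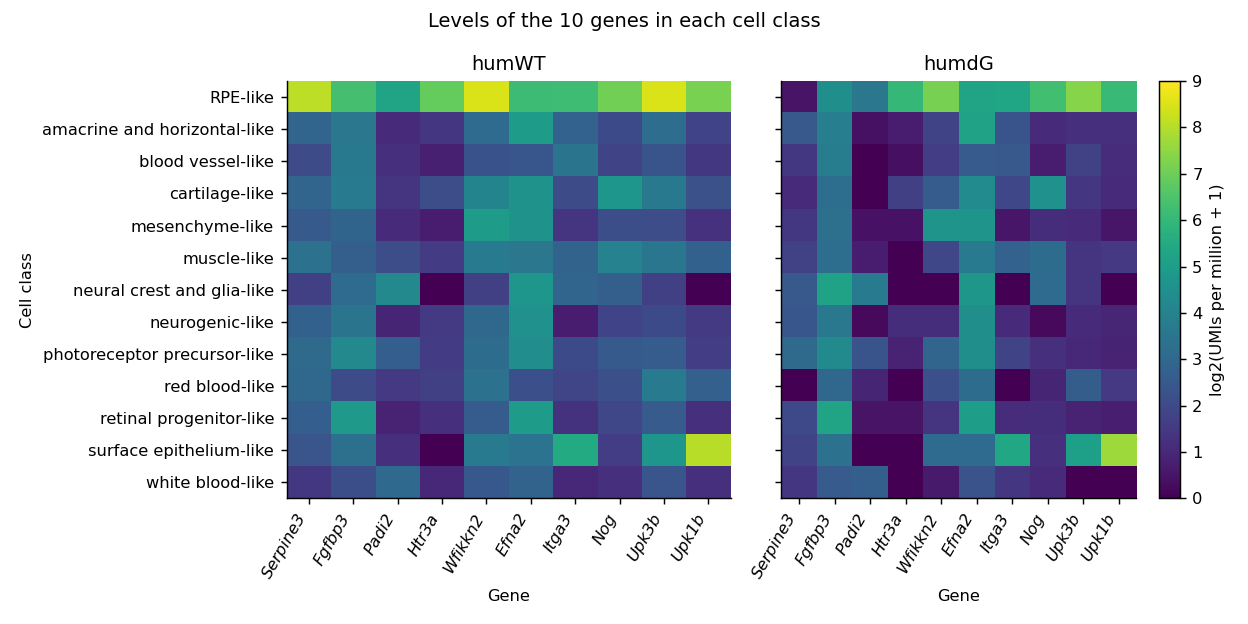
Level of each gene (x axis) in each named cell class (y axis) as log2(CPM + 1), for humWT (left) and humdG (right). The RPE-like row is the brightest for 9 of 10 genes in humWT, Serpine3 is dark there in humdG, and Upk1b is brightest in the surface epithelium-like class.

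Within humWT, cells with and without *Serpine3* were set side by side among the 212 RPE-like cells of at least 5000 UMIs. Of these, 53 had a *Serpine3* UMI, at a median depth of 14753 UMIs, and 159 had none, at 9480 UMIs. All 9 accompanying genes were higher in the cells with *Serpine3*, with a median log2 difference of 0.94. The order-statistic interval over the 9 genes, 0.73 to 1.17, describes the spread of these chosen genes and not counting error. *Fgfbp3* was at 193 CPM with *Serpine3* and 49.7 without, a ratio of 3.89 (3.07 to 4.95), the highest of the 9. Without the cell fullest in *Fgfbp3* that ratio was 2.62, below this interval. *Htr3a* was at 229.8 and 102.2 CPM, 2.25 times (1.87 to 2.70), and *Wfikkn2* at 680 and 318 CPM, 2.14 times (1.93 to 2.37). The lowest ratios were those of *Nog*, 1.65 (1.39 to 1.96), *Upk1b*, 1.66 (1.40 to 1.96), and *Itga3*, 1.74 (1.36 to 2.22). Of the 9 RPE markers, 6 were higher, with a median log2 difference of 0.20, from -0.16 for *Bhlhe40* to 0.48 for *Pmel*. The accompanying genes were chosen for detection in cells with *Serpine3* and the markers were not. The sets can therefore not be weighed against each other. How many of all genes were higher was not counted. *Myrf* was 1.52 times higher (1.35 to 1.71).

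Cell by cell, the 53 cells with *Serpine3* held UMIs of a median of 7 of the 9 accompanying genes and the 159 without it a median of 4. All 9 were present in 6 of the 10 fullest *Serpine3* cells, and no fewer than 7 in the others. Those 10 cells held 7.68% of the UMIs of the class, but 25.9% of the *Fgfbp3* UMIs, 21.2% of *Upk3b*, 20.7% of *Htr3a* and 20.2% of *Wfikkn2*, and as little as 11.8% of *Upk1b* and 12.9% of *Padi2*. For the RPE markers, which were not chosen by detection with *Serpine3*, the share ran from 8.77% (*Rlbp1*) to 17.0% (*Ttr*). In the fullest cell, *Wfikkn2* had 48 UMIs and *Upk3b* 26 beside the 170 of *Serpine3*.

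**Figure D4:**
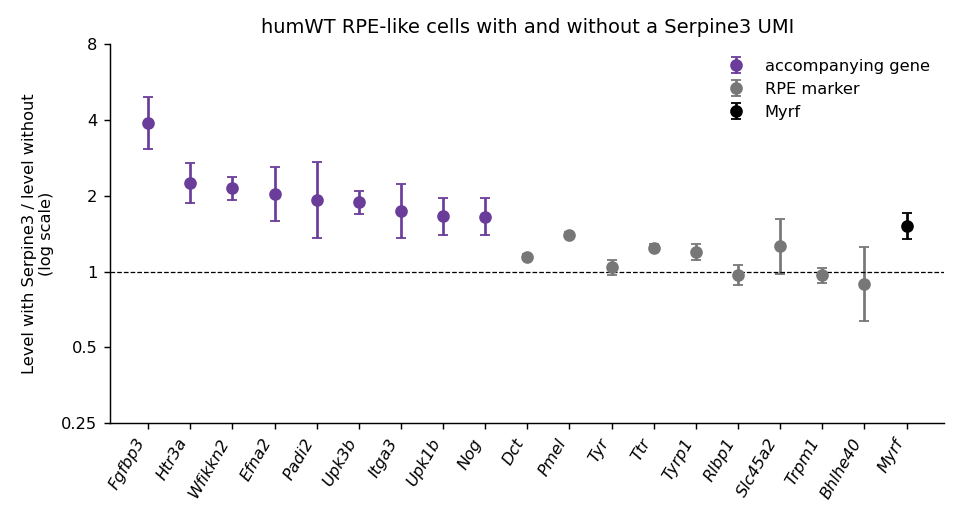
Level in 53 humWT RPE-like cells with a Serpine3 UMI divided by the level in 159 without one (y axis, log scale), with exact conditional binomial intervals, for the 9 accompanying genes (purple), 9 RPE markers (grey) and Myrf (black). The accompanying genes lie from 1.65 to 3.89, the RPE markers from 0.90 to 1.39, and the dashed line marks equal levels.

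Depth moved with these results. Summed over the 9 genes, humWT cells without *Serpine3* had 433 CPM at 2000 to 5000 UMIs and 1706 CPM at 20000 or more, so deeper cells had a higher level of these transcripts as well as more *Serpine3*. The rise was not particular to the 9 genes, since *Myrf* in the same cells was at 88.8 and 420 CPM. Compared within depth classes, the sum was 1.84 times higher with *Serpine3* (1.44 to 2.33) at 2000 to 5000 UMIs, 1.13 times (0.88 to 1.43) at 5000 to 10000, 1.49 times (1.31 to 1.71) at 10000 to 20000, and 1.72 times (1.62 to 1.84) at 20000 or more. In cells of 20000 or more UMIs all 9 genes were higher in the 22 cells with *Serpine3* than in the 31 without, 8 of them with intervals above 1. There *Fgfbp3* led again at 3.22 times (2.41 to 4.36), and *Padi2* (1.45, 0.95 to 2.24) was the one whose interval held 1. A single cell held 73 of the 179 *Fgfbp3* UMIs in those 22 cells, and the ratio without it was not computed. At 10000 to 20000 UMIs, 8 were higher, 4 with intervals above 1, while *Efna2* (1.06), *Nog* (1.09) and *Upk1b* (0.83) were near or below 1. In cells of 5000 to 10000 UMIs, of which 17 held *Serpine3*, 7 were higher, 1 of them (*Padi2*) with an interval above 1. The 9 genes were chosen for detection in cells with *Serpine3*, so these counts are a description. The same count was not made for all genes. The depth classes were not tested against each other.

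The humdG cells were also below the humWT cells that lacked *Serpine3*. Within depth classes, the sum of the 9 genes in humdG was 0.73 times (0.61 to 0.87) that of humWT cells without *Serpine3* at 2000 to 5000 UMIs. It was 0.80 times (0.64 to 0.98) at 5000 to 10000, 0.54 times (0.48 to 0.62) at 10000 to 20000 and 0.53 times (0.49 to 0.58) at 20000 or more. Among cells of at least 5000 UMIs, humdG had 0.42 times the *Padi2* (0.26 to 0.68), 0.45 times the *Fgfbp3* (0.30 to 0.66) and 0.53 times the *Wfikkn2* (0.46 to 0.60) of humWT cells without *Serpine3*. *Efna2*, at 0.77 times (0.58 to 1.03), was the only one of the 9 whose interval held 1. *Myrf* was at 0.84 times (0.74 to 0.95). The RPE markers went both ways. *Pmel* and *Tyrp1* were higher, at 1.34 (1.31 to 1.37) and 1.37 times (1.29 to 1.45). *Trpm1* (0.74, 0.69 to 0.79), *Ttr* (0.83, 0.80 to 0.85) and *Dct* (0.87, 0.85 to 0.89) were lower. The intervals of *Tyr*, *Rlbp1*, *Slc45a2* and *Bhlhe40* held 1. The 9 accompanying genes were chosen for a lower level in humdG, so their ratios are a description.

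**Figure D5:**
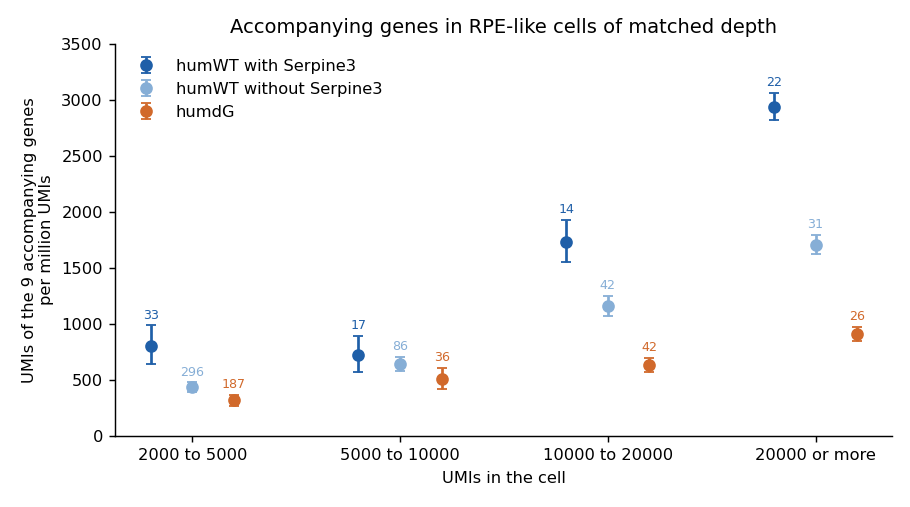
Summed level of the 9 accompanying genes in CPM (y axis) in RPE-like cells of 4 depth classes (x axis), with exact Poisson intervals, for humWT cells with Serpine3 (dark blue), humWT cells without it (light blue) and humdG cells (orange), the number of cells above each point. At 20000 or more UMIs the sums are 2941, 1706 and 905.3 CPM.

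The 9 genes were also compared with each other, in cells with and without *Serpine3* together. Over the 212 humWT cells of at least 5000 UMIs, Pearson's r of log(1 + UMIs per 10000) was above 0 for all 36 pairs, with a median of 0.34 and a range of 0.08 to 0.64. The closest pairs were *Wfikkn2* with *Nog* (r = 0.64) and *Wfikkn2* with *Upk3b* (r = 0.63). Over the 104 humdG cells, 30 of 36 pairs were above 0, with a median of 0.08 and a highest value of 0.47, for *Wfikkn2* with *Upk1b*. Cells of 1 library share its depth range, and the levels of the 9 genes were lower in the humdG cells. What part depth and level had in the r values was not tested. The r values of the libraries were not tested against each other. Because the 9 genes were chosen for detection in cells with *Serpine3*, and 53 such cells are among the 212, these r values are a description. Other gene pairs were not counted.

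Markers of other cells were checked in the 53 humWT cells with *Serpine3*. The mesothelium list, included because uroplakins also mark that tissue and read here without *Upk3b* and *Upk1b* (leaving *Msln*, *Wt1*, *Lrrn4* and *Krt19*), summed to 4.47 CPM with *Serpine3*, 6.04 without and 9.20 in humdG, with *Msln* and *Lrrn4* at 0 in the first. Of 9 surface epithelium markers, *Krt14*, *Trp63*, *Epcam* and *Cdh1* were at 0 in the cells with *Serpine3*, and the list summed to 1382 CPM against 1401 without. Of 5 lens markers *Cryaa* was at 0 and the list summed to 721 and 681 CPM. The ciliary margin and iris list of 9 genes was high throughout, at 9359, 7929 and 9667 CPM in the sets with *Serpine3*, without it and in humdG. *Ptgds* of this list and *Krt18* of the surface epithelium list were among the leading genes of the larger RPE-like cluster. Their part in these sums was not tested. Mesenchyme markers (11 genes, none at 0) summed to 2370 CPM with *Serpine3*, 1989 without and 955 in humdG, and blood vessel markers (7 genes) to 141 CPM with *Serpine3*, 66.4 without and 40.8 in humdG, in which *Pecam1* and *Tie1* were at 0. The blood vessel and mesenchyme lists thus had the same order of the 3 sets as the accompanying genes. So did the cartilage (2278, 1904 and 1874 CPM), white blood (75.1, 56.2 and 55.2), neural crest and glia (148, 131 and 120) and lens lists (648 in humdG). The mesothelium, surface epithelium, retinal progenitor, amacrine and horizontal, and retinal ganglion lists had the opposite order. The remaining lists had neither order. What part these markers had in the result was not tested.

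The genes most like *Serpine3* were ranked by the same r over the 212 humWT cells, among 8195 other genes. The median r was 0.0062. *Mag*, a myelin glycoprotein gene, came first (r = 0.45), followed by *Sdf2l1* (0.39), *Fgfbp3* (0.37), *Insl6* (0.33), *Manf* (0.31), *Erg28* (0.30), *Herpud1* (0.29), *Htr3a* (0.29), *Wfikkn2* (0.29) and *Hspa5* (0.29). *Sdf2l1*, *Manf*, *Herpud1* and *Hspa5* are genes of protein folding and quality control in the endoplasmic reticulum. Of the accompanying genes, *Nog* ranked 13, *Itga3* 15, *Upk3b* 16, *Padi2* 96, *Efna2* 157 and *Upk1b* 774, and *Myrf* ranked 164. These ranks rest on few cells. Without the 10 fullest *Serpine3* cells, *Fgfbp3* fell to rank 162 (r = 0.15), *Htr3a* to 500, *Itga3* to 565 and *Wfikkn2* to 698. *Efna2* fell to 1574, *Upk3b* to 2444 (r = 0.02) and *Upk1b* to 3112. The endoplasmic reticulum genes fell to 1705 (*Hspa5*), 2219 (*Manf*), 2472 (*Sdf2l1*) and 4710 (*Herpud1*, r = -0.03). *Mag* had too few UMIs to be ranked. *Insl6* (26), *Erg28* (37), *Nog* (80) and *Padi2* (95) stayed nearer the top.

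*Mag* had 48 UMIs in 18 of the 53 cells with *Serpine3* and 22 UMIs in 11 of the 159 without, 42.9 and 10.2 CPM, 4.20 times higher (2.49 to 7.30). Between libraries, *Mag* had 81 UMIs in humWT RPE-like cells and 8 in humdG, a log2 ratio of -2.52 (-3.78 to -1.48). *Insl6*, an insulin-like peptide gene, had 104 and 19 UMIs (-1.64, -2.43 to -0.92). *Manf* (1078 and 642 UMIs) and *Hspa5* (2745 and 1400 UMIs) had log2 ratios of 0.07 (-0.08 to 0.21) and -0.16 (-0.25 to -0.06). Some genes that resembled *Serpine3* across cells were thus much lower in humdG and others changed little.

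Over 25 points, each a named class in a library, the log2 levels of 17353 genes were ranked in the same way. *Gm12381* (r = 0.86) and *Atp6v1b1* (r = 0.83) came first, then *A930012L18Rik* (0.69), *Gm1604a* (0.64) and *Cnih3* (0.64). *Atp6v1b1*, a subunit of the vacuolar proton pump, had 41 UMIs in humWT RPE-like cells and 1 in humdG, and 0.89 CPM in the next class of humWT. *Gm12381* had 20 UMIs and 0. Of the 25 points, that of humWT RPE-like cells stands far above the others for *Serpine3*, and the classes of a library share its depth and any free RNA.

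Relatives and partners of the 10 genes came from lists of 59 genes, of which 36 had at least 20 UMIs in RPE-like cells. Their median log2 ratio of humdG to humWT was -0.23, with 24 lower, where 55.4% of all 12635 genes were lower. A value of -1 or less was reached by 4 (5.52% of all genes) and 1 or more by 2 (2.52% of all genes). Of the relatives of *Serpine3*, *Serpine2* had 384 and 147 UMIs (88.4 and 59.6 CPM, log2 ratio -0.57, -0.85 to -0.29). *Plat*, which encodes tissue plasminogen activator, had 52 and 7 UMIs (-2.08, -3.46 to -0.93). Of 13 measured BMP and TGF-beta genes, 10 were lower, beside the 55.4% of all genes. *Bmper* (71 and 5 UMIs, -3.01, -4.68 to -1.72) and *Nbl1* (74 and 10 UMIs, -2.07, -3.19 to -1.11), both extracellular BMP regulators, were lowest. *Bmper* was also among the leading genes of the cartilage-like cluster, which had 1258 humWT and 139 humdG cells. The 9 cartilage markers summed, in RPE-like cells of at least 5000 UMIs, to 2278 CPM with *Serpine3*, 1904 without and 1874 in humdG, and their part in the *Bmper* value was not tested. *Sostdc1*, another BMP antagonist, was the most abundant of the list and higher in humdG (489 and 723 CPM, 0.56, 0.47 to 0.66), and *Bmp4*, a ligand that *Nog* binds, was at 303 and 331 CPM (log2 ratio 0.13, with an interval that holds 0).

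Among the other lists, 5 of 7 measured ephrin and Eph genes were lower, a share not far from the 55.4% of all genes. Their median log2 ratio was -0.70. *Efna5*, the most abundant ligand, was lower like *Efna2* (1006 and 352 UMIs, -0.70, -0.88 to -0.52). The receptors *Epha4* (-0.50, -0.72 to -0.29), *Epha3* (-0.92, -1.52 to -0.35) and *Epha7* (-0.74, -1.26 to -0.24) were lower too. So was *Epha2* (-0.97), with an interval that holds 0. Higher were the receptor *Epha5* (117 and 142 CPM, 0.28, 0.08 to 0.48) and the ligand *Efna4* (0.56, -0.25 to 1.36). Of the fibroblast growth factors, *Fgf15* (60 and 128 UMIs, 1.91, 1.46 to 2.38) and *Fgf9* (43 and 49 UMIs, 1.00, 0.38 to 1.63) were higher and *Fgf1* lower (99 and 35 UMIs, -0.68, -1.28 to -0.11). *Fgf15* is also a marker of retinal progenitors, whose list of 10 genes summed, in RPE-like cells of at least 5000 UMIs, to 835 CPM in humWT cells with *Serpine3*, 963 without and 1220 in humdG, and its part in that value was not tested. *Upk3bl*, a relative of *Upk3b*, did not follow it (158 and 184 CPM, 0.22, 0.05 to 0.39), and *Upk1a*, *Upk2* and *Upk3a* had 0 to 2 UMIs. *Itgb1*, the partner chain of *Itga3*, stood at 167 and 190 CPM (0.19, 0.02 to 0.36), and 5 of 8 measured integrin genes were lower, with a median log2 ratio of -0.02. No other deiminase or serotonin receptor gene on the lists reached 20 UMIs, and *Htr3b*, the usual second subunit of the channel, had 1 UMI in humWT and 0 in humdG.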

How the data were processed

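Single-cell 3′ RNA libraries of eye cups, 1 per genotype, were analysed from the UMI counts per gene and cell barcode deposited by the authors. Per the file headers and the submitters' notes, Cell Ranger 7.1.0 made these counts against mm10 and kept barcodes called as cells. The notes also name Seurat 4.1.1. Whether intronic reads were counted is not given in the sources used here.

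The cell filter asked for over 500 genes and less than 15% of UMIs from mitochondrial genes. The doublet caller of scanpy 1.11.5 marked 1 and 0 cells and had not worked, so its scores were ranked and the top 5% of each library was left out. Seurat 5.3.0 (R 4.3.3) integrated the libraries by canonical correlation (2000 variable genes, 20 dimensions) and clustered them at resolution 0.5. A cluster was named X-like from at least 3 markers of a fixed list. Clusters whose top 10 genes favoured the markers of a different class stayed unnamed (a pigmented one, and one of 938 and 578 cells with mesenchyme markers and *Rgs5*). Clusters that qualified for no list stayed unnamed too. In all, 7647 of 16166 humWT cells and 12026 of 18173 humdG cells were unnamed. These names were rebuilt here, so a class may differ from that of the study. Gene positions are those of GENCODE on GRCm38.

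CPM is the sum of a gene's UMIs in a class over the class total, times 1000000. Poisson, Clopper-Pearson and conditional binomial intervals (95%, scipy 1.17.1, Python 3.11.15) cover counting error only, and the upper limit for a count of 0 is 3 counts. Counts of genes past a log2 ratio use sums with 0.5 counts added and genes with at least 20 UMIs in both libraries together. With 1 library per genotype no test was made. The calculations were tested on simulated data. Alternatives covered the choice of cells, clustering, scaling, free RNA and single cells.

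The named genes were the 10 members, the 10 genes most like *Serpine3* over humWT RPE-like cells (at least 50 UMIs in at least 10 cells), the 5 most like it over classes, *Myrf*, lists of relatives and the neighbours within 200000 bases. The members and lists were chosen with earlier results of these data known. The values of 1 gene on these lists are not reported here.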

Additional observations from a re-analysis of the deposited data

How the results depend on the processing

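No result changed direction under the alternatives run. The log2 ratio of *Serpine3* lay between -10.18 and -3.78 over 12 alternatives, the median of the 10 genes between -1.25 and -0.50 over 13, and all 108 values for the 9 accompanying genes were below 0 (-2.55 to -0.08), 17 of them outside the counting interval. The values of -3.78 and -0.50 came from cells taken by 3 of 7 pigment and RPE markers without clusters. That choice held 2469 and 978 cells, of which 475 and 343 were RPE-like, gave a humWT share with *Serpine3* of 2.19% after thinning, and a median log2 difference of the accompanying genes between cells with and without *Serpine3* of 1.65. A stricter choice of markers left 1 and 4 cells and was not used. The humWT share with *Serpine3*, 6.96% at 1000 UMIs, was 15.5% unthinned, 9.80% at 2000 UMIs and 17.9% at 5000 UMIs. The difference of the accompanying genes, 0.94, was 1.21 for cells with 3 or more *Serpine3* UMIs. In depth classes chosen after seeing the data it was 0.19 at 5000 to 10000 UMIs, 0.58 at 10000 to 20000 and 0.69 at 20000 or more. These depth classes set cells of like depth side by side as a description. The cause of the differences was not tested. No paired analysis was possible because each genotype has 1 library. The number of cells limits the humdG shares by depth class: 0 of 187 cells at 2000 to 5000 UMIs allows 1.6%, and 0 of 26 at 20000 or more allows 11.5%.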
